A study of Mus musculus with 9 samples.

Results

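The dystrophin-glycoprotein complex joins the actin cytoskeleton of a muscle fibre, through its membrane, to the laminins of the basement membrane. The genes described here are the 8 members Dmd, Utrn, Dag1, Sgca, Sgcb, Sgcd, Sgce and Dtna, found by gene name in the deposited count table of sham quadriceps against sham heart. They occupy 30 of its 35745 transcript rows and are 8 of its 24537 gene names. Tissue was taken 12 weeks after surgery from mice that the series' design text names as C57Bl6, aged 8 weeks at the operation, and the methods name as male C57Bl/6JCrl, aged 8 to 10 weeks. The 3 heart and 3 quadriceps libraries of this table come from sham-operated animals, so neither group had pressure overload, and no genetic change is given for any group. A further 3 quadriceps libraries come from mice after transverse aortic constriction (TAC), which narrows the aorta and overloads the left ventricle. Their titles read TACKachexie, and the paper describes wasting muscle in a model of heart failure with cachexia. These libraries stand beside the sham quadriceps in a second table of 587 genes. The labels do not say which part of the heart was taken, or whether a heart and a quadriceps library of the same number share a mouse.

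Dystrophin, the product of Dmd, binds actin at its amino end and β-dystroglycan near its carboxyl end, and its loss causes Duchenne muscular dystrophy. Utrophin, the product of Utrn, is its close homolog, is enriched at neuromuscular and myotendinous junctions in adult skeletal muscle, and can take the place of dystrophin in the complex. Dag1 encodes both subunits of dystroglycan, the laminin receptor, whose binding depends on a chain of sugars. The sarcoglycans form a membrane subcomplex beside dystroglycan, in which ε-sarcoglycan (Sgce) can stand in for the muscle-specific α-sarcoglycan (Sgca). α-Dystrobrevin (Dtna) binds dystrophin and, with it, anchors the syntrophins, which in turn hold neuronal nitric oxide synthase (Nos1) at the membrane.

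Dmd is the member whose rows differ most in structure. Its table rows hold the long muscle form (NM_007868, 13771 nucleotides), 4 rows of 4478 to 4547 nucleotides that begin at an internal start and end with the 3′ part of the long form, and 1 row of 1399 nucleotides. On the GENCODE annotation, the short transcript matched to the row with the most counts shares 4391 bases with the long one, from its position 9418 onwards, and has 47 bases of its own. The 250 bases before each start are shown, because the long and short forms are made from separate starts. They come from the RefSeq promoter table for GRCm38.p6, plus strand, at chrX:82948620-82948869 for the long form and chrX:85048045-85048294 for the short form. Capitals mark matches to a CArG box or a MEF2 box, which are sequences bound by serum response factor and by MEF2 factors.
Dmd long form: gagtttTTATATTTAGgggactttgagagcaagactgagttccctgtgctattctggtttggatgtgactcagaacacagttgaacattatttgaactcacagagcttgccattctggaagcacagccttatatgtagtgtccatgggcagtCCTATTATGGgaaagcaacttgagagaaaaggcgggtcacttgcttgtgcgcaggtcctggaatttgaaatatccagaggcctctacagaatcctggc
Dmd short form: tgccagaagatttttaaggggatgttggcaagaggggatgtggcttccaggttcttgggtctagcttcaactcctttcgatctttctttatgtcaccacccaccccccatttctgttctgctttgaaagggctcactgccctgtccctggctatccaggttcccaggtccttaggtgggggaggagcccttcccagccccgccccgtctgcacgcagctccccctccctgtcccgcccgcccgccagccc
The window of the long form held 1 CArG box, which begins 98 bases before the start, 1 MEF2 box and 2 E-boxes (CANNTG), and no MCAT element (CATTCC), all searched on both strands. None of these letters occurred in the window of the short form. Of 32851 RefSeq windows of this length, 1.5% held a CArG box, 2.9% a MEF2 box, 66.2% an E-box and 12.6% an MCAT element. The share of G and C was 45.2% before the long start and 60.0% before the short one. These matches are a description of letters, not of binding. Whether use of the 2 starts differed between heart and quadriceps was not tested.

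The libraries of the heart comparison held 23383452 to 38382751 counts. The quasi-likelihood test of edgeR was run over 24280 transcripts, with trimmed mean of M values (TMM) scaling and Benjamini-Hochberg adjustment over all of them, and a gene was called where its adjusted p was under 0.05. Each gene is represented by the transcript row with the most counts. Skeletal fibre markers (6 of 6 higher) summed to 57500 to 81350 CPM (counts scaled to the size of their library) in quadriceps and 162 to 380.9 in heart, and cardiomyocyte markers (6 of 6 lower) to 94.5 to 255.8 and 27460 to 29770, so both tissues carried their defining markers. Myl7, an atrial marker, had 2075, 164 and 3 counts in heart libraries 1, 2 and 3. The median log2 fold change of all transcripts was -0.056 with TMM and -0.805 when the library totals set the scale, so a direction below is relative to TMM unless both scalings are given. In transcripts over 8000 nucleotides with at least 100 mean counts, the median deviation from the tissue mean was -0.18 on the log2 scale in quadriceps library 2, against 0.11 and 0.08 in libraries 1 and 3.

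Of the 8 members, 3 were higher in quadriceps than in heart, 3 were lower and 2 were not called. Over all genes with a tested transcript, 66.0% were called, 32.1% higher and 33.9% lower (66.6%, 32.2% and 34.4% of all tested transcripts), so the members' counts were near the background. Utrn, Dag1 and Sgce were lower and Dtna, by its row with the most counts, was higher in quadriceps under both scalings. Dmd and Sgca were called higher with TMM, but their log2 fold changes changed sign with library totals, as did those of Sgcb and Sgcd. The groups did not overlap for 4 members (Utrn, Dag1, Sgce and Dtna), 1 of them higher and 3 lower, and 71.7% of all tested genes had groups that did not overlap (33.9% higher and 37.9% lower). All 30 rows of the members passed the filter of more than 5 counts in at least 2 libraries. The median log2 fold change of the 8 members was 0.11, against -0.05 over the 14906 genes tested.

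**Figure D1:**
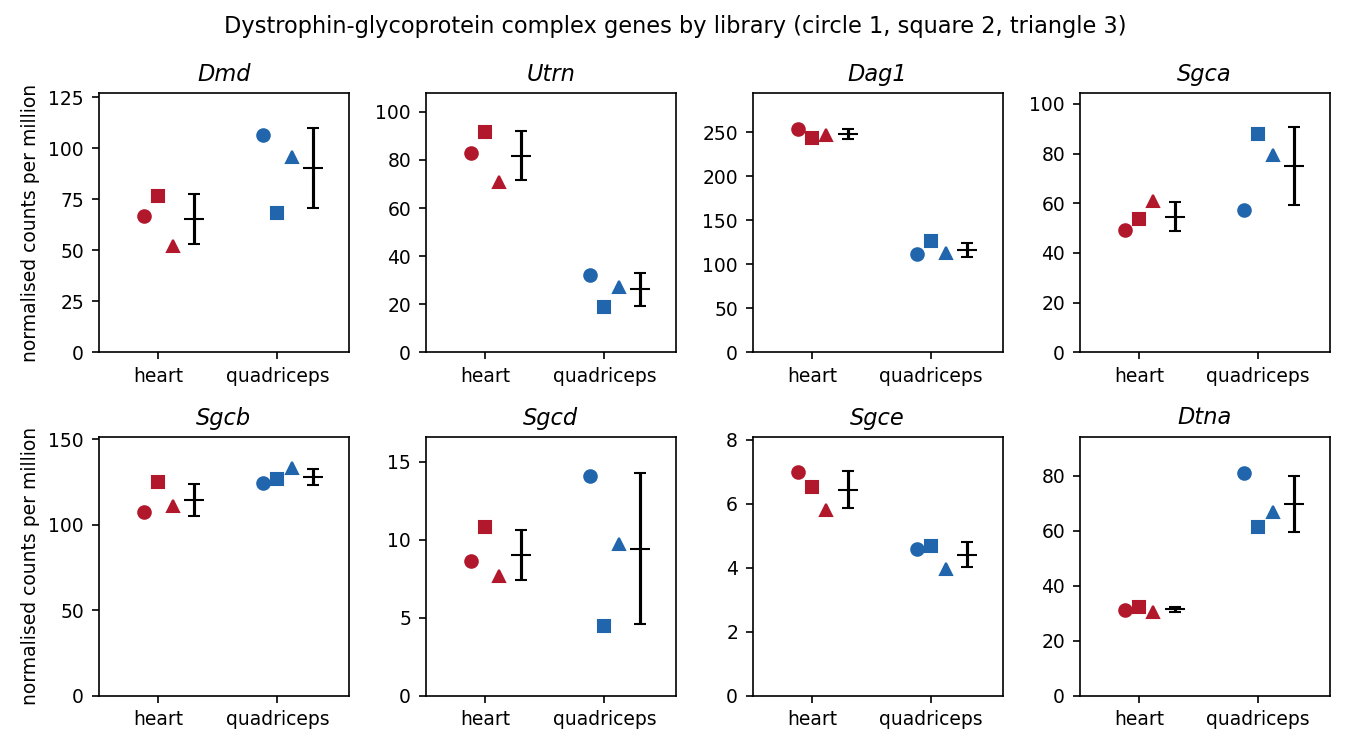
Normalised CPM (TMM scaling, linear axis from 0) of each member in the 3 sham heart libraries (red) and the 3 sham quadriceps libraries (blue), with the mean and SD in black. Utrn, Dag1 and Sgce lie lower in all quadriceps libraries than in any heart library, Dtna lies higher in all of them, and Dmd, Sgca, Sgcb and Sgcd overlap.

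Dmd (GRCm38 chrX:82948870-85206141, plus strand) had 66.8, 76.8 and 52.2 CPM in heart libraries 1 to 3 and 106, 68.3 and 95.9 CPM in quadriceps libraries 1 to 3. Quadriceps library 2 lay within the range of the hearts, and the other 2 quadriceps libraries lay above it. The means were 65.3 ± 12.4 and 90.2 ± 19.7 CPM (SD, n = 3), a log2 fold change of 0.47 (SE 0.19, edgeR adjusted p = 0.0493). With library totals it was -0.27 (adjusted p = 0.292), and the call was lost without quadriceps library 1 (0.35, adjusted p = 0.108), without quadriceps library 3 (0.44, adjusted p = 0.106), without heart library 1 (0.48, adjusted p = 0.0989) and without heart library 3 (0.33, adjusted p = 0.171).

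The log2 fold change of Dmd was larger in its 4 short rows than in the long one. The 4 short rows, whose counts were nearly the same, had log2 fold changes of 0.95 each with TMM (adjusted p = 0.000119 to 0.000128), while the row of 1399 nucleotides had 0.30 (SE 0.23, adjusted p = 0.27). In RPKM, scaled by library totals, NM_001314036 had 9.52 ± 1.29 in heart and 10.99 ± 1.57 in quadriceps (SD, n = 3). There the groups overlapped, so the size of the rise in the short rows rests on the scaling. The short row with the most counts (NM_001314036) held 1782, 1728 and 1216 counts from the hearts and 1849, 1400 and 1188 from the quadriceps, against 3180, 3866 and 2242 and 2895, 1635 and 1697 in the long row. Its counts equalled 56.0%, 44.7% and 54.2% of the long-row counts in heart libraries 1 to 3 and 63.9%, 85.6% and 70.0% in the quadriceps libraries, and the groups did not overlap. Counts outside the short row were taken as those of the long row less those of the short row. Per kilobase they were 0.387, 0.61 and 0.416 of the short-row counts in heart and 0.279, 0.0828 and 0.211 in quadriceps. That ratio was lower in quadriceps by 1.44 on the log2 scale as a difference of means (-1.12 ± 0.35 and -2.56 ± 0.92, n = 3, exact two-sided permutation p = 0.1, the smallest 3 against 3 can give). Without quadriceps library 2 the difference was -0.93. The subtraction takes every short-row read as lying in the long row, although the short transcript has 47 bases of its own. The part of those bases was not tested.

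Counted outside the short row by the same subtraction, Dmd had 29.4, 42.5 and 23.9 CPM in heart and 38.5, 9.82 and 28.8 CPM in quadriceps. There the groups overlapped, and the log2 ratio of the means was -0.31 (exact two-sided permutation p = 0.6). Quadriceps library 2 lay below all hearts and set the sign: without it the quadriceps mean was 33.6 CPM against 31.9 CPM in heart, a log2 ratio of 0.08. Reads from the shared exons cannot be assigned to the long or the short form. Quadriceps library 2 was both the lowest in long transcripts and the lowest outside the short Dmd row, and the part of transcript coverage in the Dmd values was not tested.

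**Figure D2:**
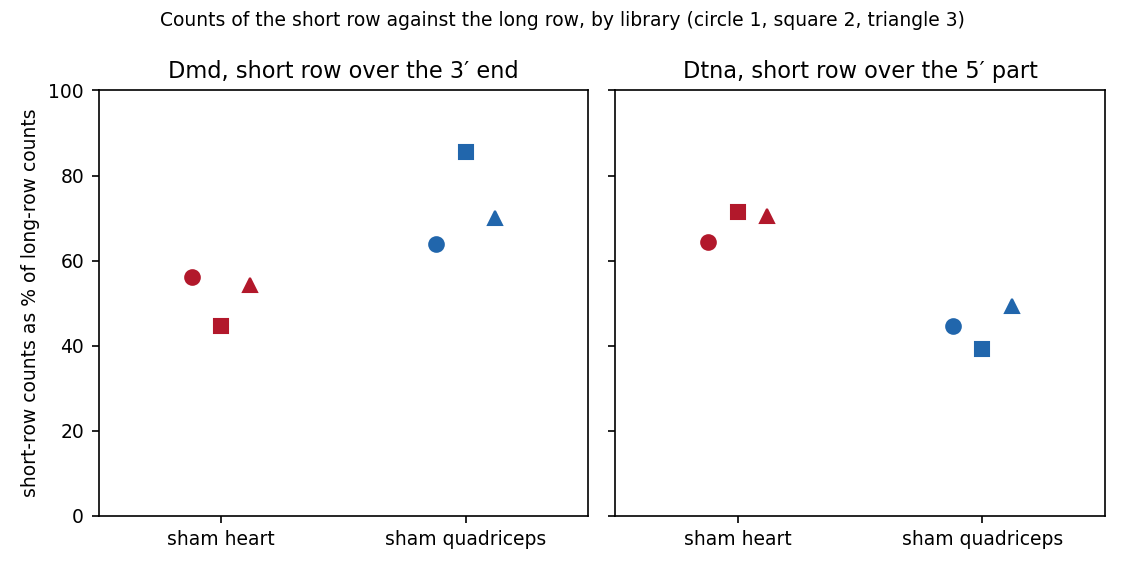
Counts of the short transcript row as a percent of the long row in each library, for Dmd (NM_001314036 against NM_007868, left) and Dtna (NM_010087 against NM_207650, right), with sham heart in red and sham quadriceps in blue. The percent for Dmd is 44.7 to 56.0 in heart and 63.9 to 85.6 in quadriceps, and that for Dtna is 64.3 to 71.4 in heart and 39.1 to 49.2 in quadriceps.

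Utrn (chr10:12382188-12869365, minus strand) showed the largest difference among the members. It had 82.8, 91.5 and 71.0 CPM in heart and 32.3, 18.9 and 27.1 CPM in quadriceps, so every quadriceps library lay below every heart library. The means were 81.8 ± 10.3 and 26.1 ± 6.76 CPM (SD, n = 3), a level 3.13-fold lower in quadriceps (log2 fold change -1.65, SE 0.19, adjusted p = 4.518e-05). With library totals the log2 fold change was -2.38. Utrn is also made by endothelial cells, whose 6 markers were all lower in quadriceps, with summed levels of 143 to 163 CPM against 456 to 492 CPM in heart. Fewer cells of a type and less RNA per cell cannot be told apart in such bulk tissue, and the part of endothelial cells in the fall of Utrn was not tested.

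The ratio of Utrn to Dmd does not depend on the scaling between libraries. In counts per kilobase it was 1.39, 1.33 and 1.52 in heart libraries 1 to 3, so the level of Utrn was above that of the long Dmd row in every heart. In quadriceps it was 0.34, 0.309 and 0.316, so the level of Dmd was above that of Utrn in all 3 libraries. The ratio was 4.39-fold lower in quadriceps (difference of mean log2 ratios -2.14, with SDs of 0.10 and 0.07, n = 3, exact two-sided permutation p = 0.1, the smallest possible, and 0.1 after adjustment over 4 ratios). The order in heart depends on the Dmd row: the short row NM_001314036 had 10.6, 9.9 and 8.08 RPKM in the hearts, above Utrn at 8.66, 9.75 and 7.49 RPKM in each. Against the short row the difference of mean log2 ratios was -2.63. Heart and quadriceps libraries differed by far more than their spread, although 3 against 3 cannot reach a p of 0.05.

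Dag1 (chr9:108204634-108263958, minus strand) was the most abundant member in heart. It had 254, 244 and 248 CPM in heart and 112, 126 and 112 CPM in quadriceps, and the groups were far apart. The means of 249 ± 5.45 and 117 ± 8.11 CPM (SD, n = 3) gave a level 2.13-fold lower in quadriceps (log2 fold change -1.09, SE 0.10, adjusted p = 1.215e-05). All 7 of its rows gave log2 fold changes between -1.091 and -1.086, since they share nearly all their reads. The ratio of Dag1 to Dmd per kilobase was 9.39, 7.81 and 11.7 in heart and 2.58, 4.54 and 2.89 in quadriceps, lower by 1.55 on the log2 scale (exact two-sided permutation p = 0.1, adjusted 0.1, n = 3).

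Among the 4 sarcoglycan members, Sgce was the one called lower. Sgce (chr6:4674350-4747207, minus strand) had 6.99, 6.54 and 5.82 CPM in heart and 4.59, 4.68 and 3.96 CPM in quadriceps, with no overlap. The means were 6.45 ± 0.59 and 4.41 ± 0.397 CPM (SD, n = 3), a log2 fold change of -0.54 (SE 0.13, adjusted p = 0.00489), and all 5 of its rows were called lower, with log2 fold changes of -0.55 to -0.52. It rests on fewer counts than the other members, with 250 to 333 in the hearts and 70 to 125 in the quadriceps.

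Sgca (chr11:94962791-94976327, minus strand), the α-sarcoglycan of striated muscle, had 49.1, 53.8 and 60.9 CPM in heart and 57.4, 87.8 and 79.3 CPM in quadriceps. Quadriceps library 1 lay within the heart range, and the other 2 lay above it. The log2 fold change was 0.45 (SE 0.16, adjusted p = 0.0299), but -0.31 with library totals (adjusted p = 0.0658). The call was lost on leaving out heart library 1 (0.38, adjusted p = 0.111), heart library 2 (0.44, adjusted p = 0.0841), quadriceps library 2 (0.32, adjusted p = 0.0833) or quadriceps library 3 (0.44, adjusted p = 0.0836).

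Sgcb (chr5:73632749-73647790, minus strand), the β subunit, was close in level between the tissues after TMM scaling. It had 108, 125 and 111 CPM in heart and 124, 127 and 133 CPM in quadriceps, with means of 115 ± 9.14 and 128 ± 4.54 CPM (SD, n = 3) and 1 quadriceps library within the heart range. The log2 fold change was 0.16 (SE 0.10, adjusted p = 0.184). With library totals it was -0.59 and passed the test (adjusted p = 0.000971), so its direction rests on the scaling.

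Sgcd (chr11:46896253-47988969, minus strand), the δ subunit, varied most among the quadriceps libraries. It had 8.65, 10.8 and 7.66 CPM in heart and 14.1, 4.47 and 9.72 CPM in quadriceps, so that quadriceps libraries 1 and 2 lay on either side of all hearts. The log2 fold change was 0.07 (SE 0.33, adjusted p = 0.87), and without quadriceps library 1 it was -0.36. The SE leaves room for a difference of either sign.

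Expressed per length, Sgce was the sarcoglycan member whose share differed between the tissues without overlap. Of the summed RPKM of Sgca, Sgcb, Sgcd, Sgce and Sgcz, Sgca took 40.9% to 47.8% in heart and 41.9% to 56.0% in quadriceps, and Sgcb took 40.4% to 44.1% and 37.5% to 42.1%. Sgcd took 3.54% to 12.8%, both extremes being quadriceps libraries. Sgce took 5.78%, 4.79% and 4.4% in heart and 3.23%, 2.88% and 2.43% in quadriceps. The ratio of Sgce to Sgca was 0.137, 0.117 and 0.0921 in heart and 0.0771, 0.0514 and 0.048 in quadriceps, a 1.98-fold lower ratio (difference of mean log2 ratios -0.99, exact two-sided permutation p = 0.1, adjusted 0.1, n = 3).

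Dtna, on chromosome 18, was the member with the largest rise. It had 31.3, 32.2 and 30.5 CPM in heart and 81.0, 61.1 and 66.7 CPM in quadriceps, with every quadriceps library far above the hearts. The means of 31.3 ± 0.87 and 69.6 ± 10.3 CPM (SD, n = 3) gave a level 2.22-fold higher in quadriceps (log2 fold change 1.15, SE 0.12, adjusted p = 2.463e-05), and with library totals the log2 fold change was 0.41 (adjusted p = 0.0365). All 8 of its rows were called higher, but by different amounts. The row of 1683 nucleotides (NM_010087), which covers the 5′ part and lacks most of the long 3′ end, had a log2 fold change of 0.52 (SE 0.15, adjusted p = 0.0122), against 1.15 for the long row. In RPKM, scaled by library totals, this short row had 16.6 ± 1.29 in heart and 14.3 ± 3.8 in quadriceps (SD, n = 3). The row NM_001285811 had 14.8 ± 0.911 and 13.4 ± 3.785 RPKM. For both rows the groups overlapped in RPKM, so their higher direction rests on the scaling.

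The counts of the short Dtna row equalled 64.3%, 71.4% and 70.4% of those of the long row in heart and 44.6%, 39.1% and 49.2% in quadriceps. They are not a part of the long-row counts, since the GENCODE transcript matched to the short row shares 1329 bases with the long one and has 267 bases outside it. The difference of means was -24.4 percentage points (68.7% ± 3.88 and 44.3% ± 5.08, SD, n = 3, exact two-sided permutation p = 0.1), and the groups did not overlap. The part of those 267 bases and of transcript coverage in this difference was not tested. Of the members, Dtna alone has exons that overlap another annotated gene, the opposite-strand gene Gm47898, by 90 bases, and whether the counting used strand is not given in the sources used here.

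**Figure D3:**
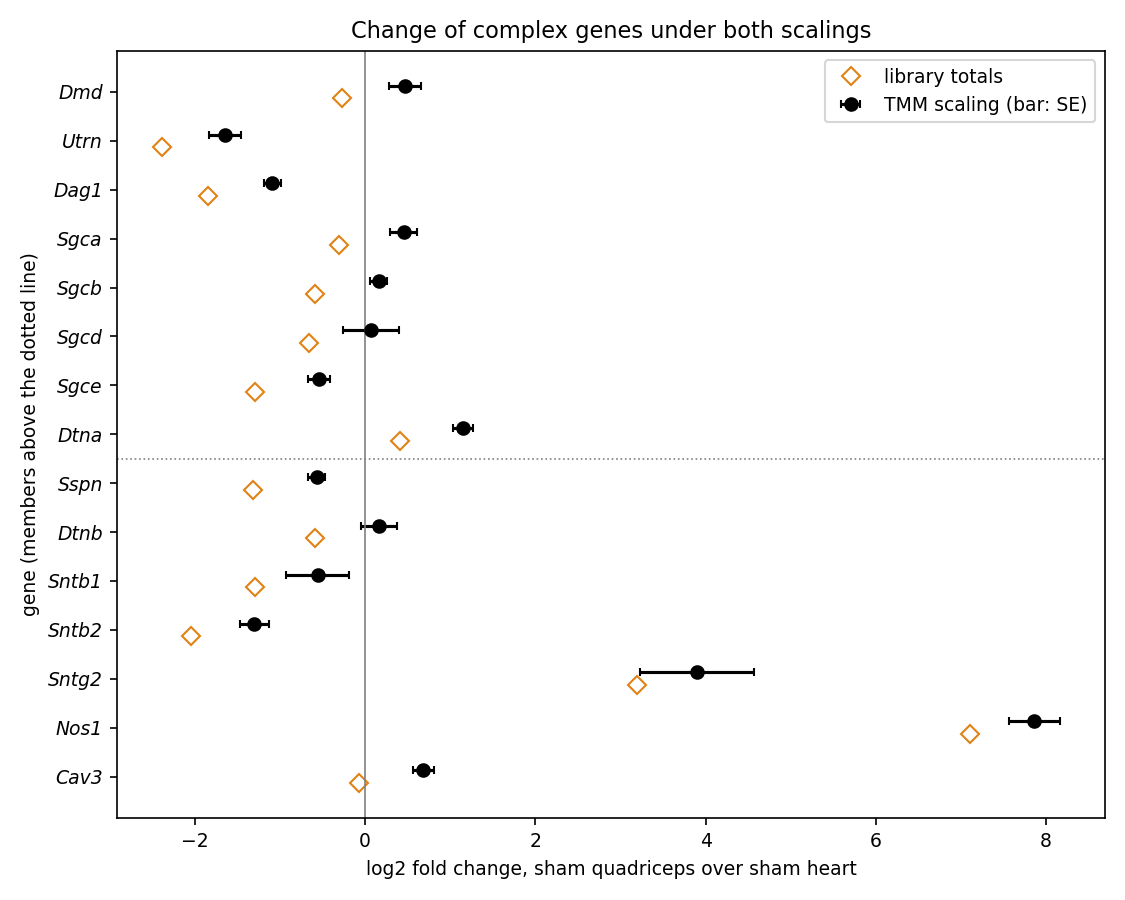
Log2 fold change of sham quadriceps over sham heart for the 8 members (above the dotted line) and the 7 tested other genes of the complex reported here, with TMM scaling (black, bar: SE) and with library totals (orange). The sign is the same under both scalings for Utrn, Dag1, Sgce, Dtna, Sspn, Sntb1, Sntb2, Sntg2 and Nos1, and differs for Dmd, Sgca, Sgcb, Sgcd, Dtnb and Cav3. Sntg2 passed the count filter through quadriceps alone.

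Of 9 other genes of the complex reported here, 7 were tested, of which 3 were higher, 2 lower and 2 not called, with a median log2 fold change of 0.16. Among the 3 higher, Sntg2 passed the count filter through quadriceps alone. Nos1, whose product is held at the membrane through the complex, was counted 18, 14 and 3 times in the hearts and 1380, 1406 and 1164 times in the quadriceps (log2 fold change 7.86, SE 0.30, adjusted p = 3.364e-08). Every quadriceps library lay far above every heart library, and with library totals the log2 fold change was 7.11.

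The β-syntrophins gave values below 0. Sntb2, the β2-syntrophin, was lower in quadriceps (log2 fold change -1.30, SE 0.17, adjusted p = 9.249e-05), and Sntb1, the β1-syntrophin, had a value of -0.56 that did not pass (SE 0.37, adjusted p = 0.207) but passed with library totals (-1.29, adjusted p = 0.0183). Sntg2 was counted 1, 2 and 1 times in the hearts and 13, 5 and 14 times in the quadriceps, and was called higher (adjusted p = 0.000664) at levels too low for a fold. It passed the count filter through quadriceps alone, so its call could only be higher. Sntg1 had 1 count over the 6 libraries and was not tested.

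Sspn, the sarcospan that sits with the sarcoglycans, was lower in quadriceps at -0.57 (SE 0.10, adjusted p = 0.000973) and at -1.32 with library totals. Cav3, the muscle caveolin, was higher at 0.69 (SE 0.12, adjusted p = 0.000718), with -0.07 under library totals. Dtnb, the β-dystrobrevin, had a value of 0.16 (adjusted p = 0.524), and with library totals it was lower (-0.58, adjusted p = 0.0335). The ratio of Dtnb to Dtna was 0.103, 0.0848 and 0.0852 in heart and 0.0388, 0.0461 and 0.055 in quadriceps, without overlap (exact two-sided permutation p = 0.1, adjusted 0.1, n = 3). Sgcz had 2 counts over the 6 libraries and was not tested.

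**Figure D4:**
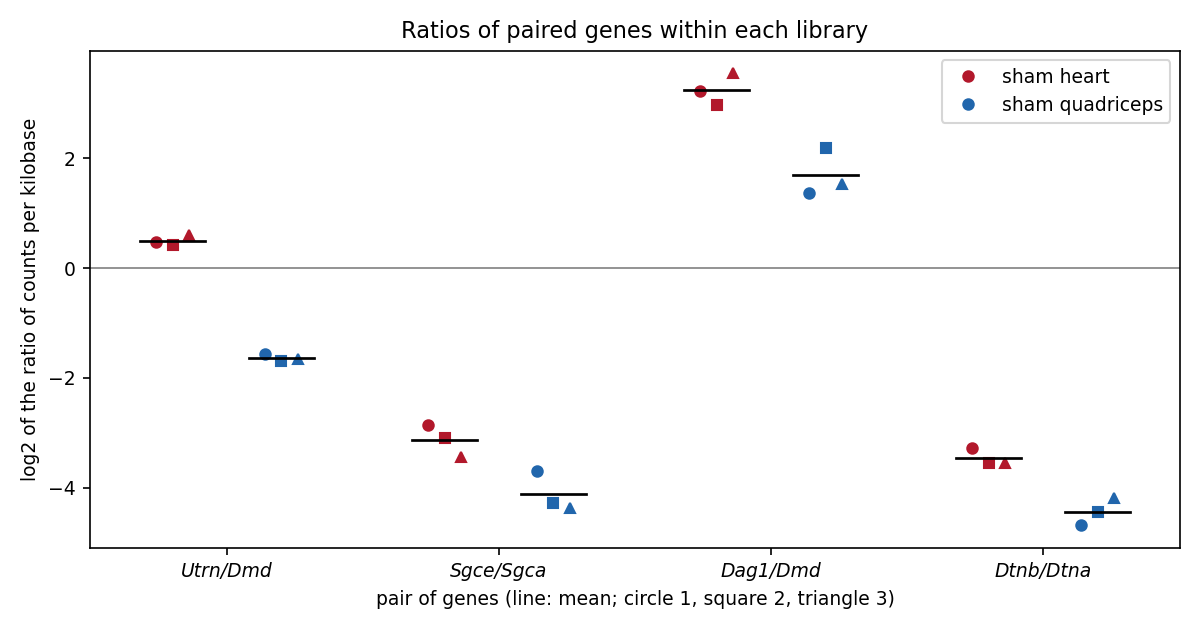
Log2 ratio of counts per kilobase for 4 pairs of genes in each sham heart (red) and sham quadriceps (blue) library, with the group mean as a line. For all 4 pairs every quadriceps library lies below every heart library.

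Compared per length as RPKM, the order of the members differed between tissues. In heart Dag1 led with 57.7 ± 0.712 RPKM (SD, n = 3), above Sgca at 41.1 ± 4.62 and Sgcb at 40.0 ± 3.58, which overlapped each other. Utrn (8.63 ± 1.13) and Sgcd (8.45 ± 1.57) followed and overlapped, then Dtna (6.44 ± 0.223) and Dmd (6.16 ± 1.2), which overlapped, and Sgce (4.68 ± 0.412), which overlapped Dmd. In quadriceps Sgca (33.1 ± 4.8) and Sgcb (26.6 ± 1.66) led and overlapped, above Dag1 at 16.1 ± 0.737. Dtna (8.58 ± 1.9), Sgcd (5.36 ± 3.06) and Dmd (5.1 ± 1.43) came next, each overlapping the next, and Sgce (1.9 ± 0.233) and Utrn (1.66 ± 0.537) were lowest and overlapped. In these rows, Utrn thus stood above Sgcd, Dtna, Dmd and Sgce in the mean of the hearts and last in that of the quadriceps. Its place in heart depends on the rows chosen. The Dtna row NM_010087 had 16.6 ± 1.29 RPKM and the Dmd row NM_001314036 had 9.52 ± 1.29 RPKM in heart, both above Utrn in the mean. RPKM values are scaled by library totals.

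Transcript length moved with the comparison. Among genes with at least 100 mean counts, the median log2 fold change fell with length, from 0.27 up to 2000 nucleotides to -0.19 over 8000 nucleotides. Relative to the median of its own length class, the log2 fold change was 0.66 for Dmd, -1.45 for Utrn, -0.92 for Dag1, -0.81 for Sgce, 1.32 for Dtna, 0.19 for Sgca and 0.14 for Sgcb, each with the sign it had before, while that of Sgcd turned from 0.07 to -0.20. A correction of every library for transcript length, chosen after seeing the data, raised Dmd from 0.47 to 0.67 (edgeR adjusted p = 0.00115). It brought Sgcb to 0.37, where Sgcb passed the test (adjusted p = 0.00912).

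Dystroglycan's ligands were lower in quadriceps throughout the tested list. Of 10 genes for laminin chains and other matrix proteins, 9 were tested and all 9 were lower in quadriceps, with a median log2 fold change of -2.01, against 33.9% lower and a median of -0.05 over all genes. The largest falls were in Lamb1, the laminin β1 chain (-2.76, SE 0.14, adjusted p = 2.669e-07), Lama4, the laminin α4 chain of vessels (-2.48, SE 0.10, adjusted p = 4.067e-08), and Agrn, the synaptic organiser agrin (-2.17, SE 0.14, adjusted p = 1.373e-06). Lama2, the α2 chain of the muscle fibre's own laminin, had a log2 fold change of -2.01 (SE 0.15, adjusted p = 3.162e-06). Summed, the ligands had 913 to 990 CPM in heart and 257 to 290 CPM in quadriceps. Endothelial markers fell over the same libraries, 3 of 6 fibroblast markers were lower (summed levels 544 to 623 CPM in heart and 395 to 553 CPM in quadriceps) and 2 of 6 smooth muscle and pericyte markers were lower and 1 higher (413 to 442 CPM and 304 to 433 CPM). Their part in the fall of the ligands was not tested. Lama1 had at most 4 counts in any library and was not tested.

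**Figure D5:**
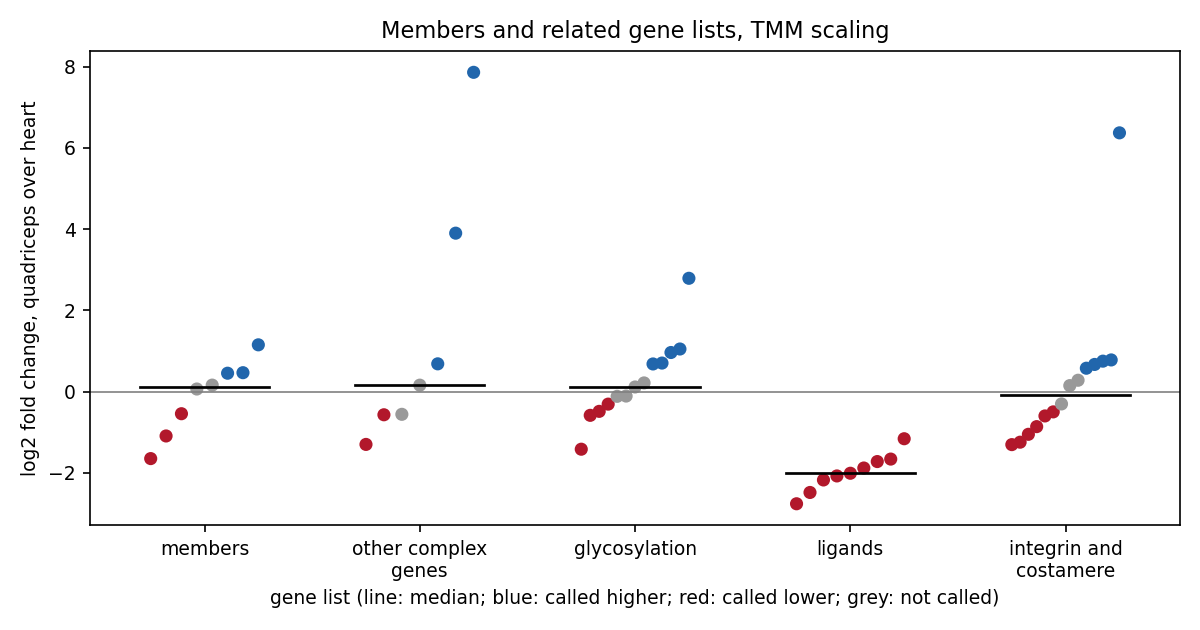
Log2 fold change (sham quadriceps over sham heart, TMM scaling) of each tested gene among the members and 4 related lists, ordered by value within a list, with the list median as a line. The 9 ligands all lie below 0 around a median of -2.01, while each of the other lists holds genes on both sides of 0.

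The enzymes that build dystroglycan's sugar chain went both ways. Of 14 genes reported here, 13 were tested, of which 5 were higher, 4 lower and 4 not called, with a median log2 fold change of 0.12. B3galnt2, which adds N-acetylgalactosamine to the core of the chain, had 18.2 ± 0.371 CPM in heart and 126 ± 4.9 in quadriceps (SD, n = 3), a log2 fold change of 2.79 (SE 0.10, adjusted p = 1.781e-08). Rxylt1, a xylosyltransferase of the chain, followed at 1.05 (adjusted p = 1.089e-05) and Dolk, the dolichol kinase, at 0.96 (adjusted p = 0.00011). The largest falls were in Dpm3, a subunit of dolichol-phosphate mannose synthase (-1.42, adjusted p = 0.000907), Pomgnt1, which adds N-acetylglucosamine to O-mannose (-0.58, adjusted p = 0.00126), and B4gat1, a glucuronyltransferase of the chain (-0.48, adjusted p = 0.00359). Pomt1, Pomgnt2, Gmppb and Dpm2 were not called, and Large2 was not tested. With library totals 2 were higher and 7 lower. In RPKM, scaled by those totals, Rxylt1 had 17.6 ± 0.898 in heart and 21.65 ± 0.91 in quadriceps (SD, n = 3). Dolk had 6.77 ± 0.591 and 7.8 ± 0.551 RPKM, so the rises of both were smaller than with TMM.

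The integrin and costamere genes, which form the other links between the fibre's cytoskeleton and its membrane, were also mixed. Of 16 genes, 14 were tested, of which 5 were higher, 6 lower and 3 (Sync, Vcl and Tln2) not called, with a median log2 fold change of -0.08. Synm, the intermediate filament protein synemin, which binds dystrophin and α-dystrobrevin, rose from 9.74 ± 0.216 CPM in heart to 808 ± 139 CPM in quadriceps (SD, n = 3), a log2 fold change of 6.37 (SE 0.17, adjusted p = 4.45e-09). Ank3, an ankyrin, was higher at 0.78 (adjusted p = 0.000598), and Des, the intermediate filament protein desmin, at 0.75 (adjusted p = 0.00283). Dysf, the membrane repair protein dysferlin (-1.30, adjusted p = 0.00031), Itga7, the laminin-binding integrin α7 of muscle (-1.24, adjusted p = 4.322e-05), and Tln1, talin 1 (-1.05, adjusted p = 0.000218), were lower. The keratins Krt8 and Krt19 were not tested. With library totals 1 gene of the list was higher, Synm at 5.62 (adjusted p = 4.848e-08), and 9 were lower, among them Sync and Tln2, while Ank3 and Des had values of 0.03 and -0.01 that did not pass.

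The remaining marker lists place these values in the tissue. Schwann cell markers (3 of 6 higher, 1 lower) summed to 28.7 to 30.5 CPM in quadriceps and 5.91 to 7.71 in heart, leukocyte markers (4 of 6 lower) to 36.8 to 57.8 and 79.2 to 96.3, and adipocyte markers (4 of 4 higher) to 9.94 to 70.8 and 0.349 to 1.3. Satellite cell markers were at 0 counts in every heart and summed to 2.1 to 2.38 CPM in quadriceps. They passed the count filter through quadriceps alone, so a call of any of them could only be higher. Among them, Calcr had 6, 0 and 8 counts in quadriceps libraries 1 to 3. The part of all these cell types in the members' values was not tested.

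The genes whose pattern over the 6 libraries was most like that of a member were found among 9767 genes with at least 100 mean counts. The measure was the root mean square difference of log2 CPM after centring each gene on its own mean. For Dag1 the nearest were Os9 (0.024) and Tbc1d9b (0.026), for Dtna Exoc6 (0.048) and Tgfbr1 (0.053), and for Utrn Parp14 (0.066) and Lrrk2 (0.084). For Sgca they were Wbscr17 (0.038) and Slfn5os (0.056), for Sgcb Lyar (0.039) and Slc23a2 (0.042), and for Sgce Desi1 (0.057) and Tchp (0.058). Dmd and Sgcd had the least close neighbours, Pdpr (0.1) and Pank3 (0.104) for Dmd and Gcc2 (0.134) and Erbin (0.136) for Sgcd. No member was among the nearest of another, since members were not candidates.

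Of the members, Dag1 alone is in the deposited table of TAC against sham quadriceps, which holds 587 genes selected for an extracellular annotation. There it is represented by NM_001276482, with counts scaled by TMM over the table. Dag1 had 2463, 3046 and 2736 normalised counts in the sham libraries and 7072, 4222 and 5068 in the TAC libraries. Every TAC library lay above every sham library, and the means were 2748 ± 292 and 5454 ± 1464 (SD, n = 3), a log2 fold change of 0.99 (SE 0.24, edgeR adjusted p = 0.0189). Of the listed genes, 17.7% of the 586 tested were higher and 11.9% lower.

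The TAC difference of Dag1 depended on the scaling. With library totals, known for 5 of the 6 libraries, its log2 fold change was 0.41 (adjusted p = 0.223), while the same 5 libraries with TMM gave 0.97 (adjusted p = 0.041). In RPKM, which is scaled by totals, Dag1 had 17.1, 16.8 and 15.6 in the 3 sham libraries, and TAC libraries 1 and 2 had 27.6 and 16.2, so that TAC library 2 lay within the sham range. Leaving out TAC library 1 gave 0.69 (adjusted p = 0.0509), and leaving out sham library 1, 2 or 3 gave 0.89, 1.07 or 0.99 (adjusted p = 0.0901, 0.0542 and 0.0701). A fit of the 4 libraries numbered 1 and 2 with the number as a replicate block gave 0.996 (adjusted p = 0.0927).

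Of 10 list genes in the TAC table reported here, 5 were higher, 1 lower and 4 not called. The higher ones were Lama5 (log2 fold change 1.20, adjusted p = 0.00813), Ahnak (1.15, adjusted p = 0.0249), Agrn (0.91, adjusted p = 0.0224), Lamc1 (0.88, adjusted p = 0.0352) and Lamb2 (0.68, adjusted p = 0.0456). Ahnak is represented here by NM_001286518, with 233, 212 and 179 counts in sham quadriceps libraries 1 to 3. Its row in the heart comparison, NM_009643, had 4101, 2630 and 2564 counts in the same libraries. Bgn, the proteoglycan biglycan, which binds dystroglycan and sarcoglycans, was lower, with 1720, 1560 and 1994 normalised counts in sham and 502, 499 and 205 in TAC libraries (-2.13, SE 0.35, adjusted p = 0.00664), and it remained lower with library totals (-2.46, adjusted p = 0.00136). With library totals none of the 5 others passed edgeR's test, the log2 fold changes running from -0.13 for Lamb2 to 0.69 for Ahnak, and 3.41% of the table was higher and 30.7% lower. Without any 1 of the sham libraries 1 gene was called higher, Lama5 (adjusted p = 0.0363 to 0.0478), and Ahnak, Agrn, Lamc1 and Lamb2 lost their calls (adjusted p = 0.0659 to 0.149). Without TAC library 1 there were 3 higher, without the TAC library numbered 4 there were 2, and TMM on the 5 libraries gave 2. Lama2, Lama4, Lamb1 and Hspg2 were not called, at 0.65, 0.11, -0.18 and 0.25. The sham quadriceps libraries are the same in this comparison and in that with heart, so the values of Dag1, lower than in heart and higher after TAC, share them.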

How the data were processed

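Per the study's methods, mRNA purified from total RNA was sequenced as single-end reads of 50 cycles, in 9 libraries, and the authors removed low-quality bases and adapters (Trim Galore), mapped the reads to mm10 (STAR) and counted them (Rsubread). The rows of the deposited tables carry RefSeq transcript names. The deposited raw counts and the deposited RPKM, in which a count is divided by transcript length and library total, were used. The deposited fold changes and p-values were not used, and 1 column of a single library, the RPKM of the TAC library numbered 4 in its table, was left unused because the labels run to 3. The counts of this library entered as an unpaired TAC replicate.

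The filter kept transcripts exceeding 5 counts in 2 or more libraries, and these were fitted with edgeR 4.0.16 (TMM, quasi-likelihood, Benjamini-Hochberg adjustment) in R 4.3.3, after tests on simulated data, in which the heart comparison gave more false calls than the nominal rate, so calls near the threshold, such as that of Dmd, are the least certain. The alternatives used limma 3.58.1 and DESeq2 1.42.0. Ratios and row shares were tested with exact permutation tests in scipy 1.17.1. Positions come from GENCODE vM21. The windows of the promoter table matched 6 of the 8 members, and not Sgce or Dtna. Nothing in the labels names separate animals for the replicates, so p-values measure the spread between these libraries. No sham library was a duplicate of another of its tissue, the chi-square of their counts over its degrees of freedom being 7.15 or more.

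Some list genes, and the 2 ratios that need them, are not reported here, and the list counts leave them out. The members and lists were chosen with earlier results of these data known. Named by rule were the members, all other genes of the complex, the 3 largest called changes in each direction of the other lists without overlap, the 2 nearest genes of each member and the list genes in the TAC table. Lama2, list genes that were not called and genes not tested were named after their values were seen. Of the members, Sgce rests on the fewest counts and Sgcd has the largest SE.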

Additional observations from a re-analysis of the deposited data

How the results depend on the processing

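Utrn, Dag1 and Sgce were lower and Dtna was higher at an adjusted p under 0.05 in all 17 alternative settings run. For Dtna this covers its row with the most counts and its longest row, not its short rows. Scaling by library totals, and limma on log2 RPKM with pseudocounts of 0.5, 0.1 and 1, which carries the same totals, gave 1 member higher in each case. In that order, Dmd was -0.27, -0.27, -0.29 and -0.24, Sgca -0.31 in all 4, Sgcb -0.59, -0.58, -0.59 and -0.57, and Sgcd -0.66, -0.75, -0.81 and -0.68 on the log2 scale. Under these 4 settings 4 other genes of the complex were lower, 2 glycosylation genes were higher and 7, 8, 8 and 8 lower, 1 integrin or costamere gene was higher, and 3241, 3201, 3218 and 3194 transcripts were higher and 15203, 15319, 15365 and 15322 lower, against 7828 and 8354 with TMM. Requiring at least 10 counts in every library left 1 member higher (Dmd 0.40 and Sgca 0.39, adjusted p = 0.0921 and 0.052) and 1 other gene of the complex higher. Of the 19432 transcripts tested under that filter, 6494 were higher and 6902 lower. With no filter Dmd was 0.43 (adjusted p = 0.0542), and with 1 transcript per gene, which tests fewer rows, Dmd was 0.46 (adjusted p = 0.0566) and 4744 genes were higher and 5059 lower. The length correction, chosen after seeing the data, gave Sgcb 0.37 and Sgcd -0.01. Apart from the scaling and the tested rows, the cause of these changes was not tested.

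Leaving out 1 library at a time gave 1 to 2 members higher, with 1 without heart library 1 or quadriceps library 3. The same fits called 6987 to 8146 transcripts higher and 7409 to 8357 lower, of 23917 to 24231 tested. Dmd ranged from 0.33 to 0.64, Sgca from 0.32 to 0.64 and Sgcd from -0.36 to 0.41. Deviations from the tissue mean were not shared by libraries of 1 number (r = -0.044, -0.171 and -0.125), so the numbers were not used as pairs, and whether libraries of 1 number share a mouse is not known. With the replicate block Sgcd was -0.03, Dmd 0.46 and Sgca 0.44, and no call of a member changed. No heart library correlated best with the quadriceps library of its own number.

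In the TAC table, Dag1 was 0.41 with library totals, 0.996 with the replicate block and 0.69 to 1.14 on leaving out each library. The count of list genes higher was 0 with library totals, 2 with TMM on the same 5 libraries, 2 with the block and 1 to 4 on leaving out each library. Library totals turned Lama4 (-0.48), Lamb2 (-0.13) and Hspg2 (-0.66). Hspg2 was -0.12 with TMM on 5 libraries and ranged from -0.12 to 0.43 on leaving out each library, and Lama4 from -0.021 to 0.153. Same-numbered sham and TAC libraries had r = 0.08 and -0.17 and are not paired.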
